A study of Mus musculus with 16 samples.

Results

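The genes described here encode the proteins of the cytosolic ribosome, and they were followed in the retina and the retinal pigment epithelium of mice after damaging light. Members were chosen by symbol alone: Rpl or Rps with a number and at most 2 further letters, the stalk genes Rplp0, Rplp1 and Rplp2, and Rpsa. Of 19938 genes with a value, 59 met this rule, 22 of the small subunit (Rpsa included), 34 of the large subunit and 3 of its stalk. The mice were 8 male Balb/cJ animals aged 10 weeks, an albino inbred strain. The 4 light-exposed mice received cool white fluorescent light of 10000 lux for 18 hours and were killed 4 hours after its end, and the 4 control mice were kept on a 12-hour cycle. Each mouse gave both tissues: the neurosensory retina (NSR) with its photoreceptors and neurons, and the RPE (retinal pigment epithelium), isolated from it, a sheet of epithelial cells that supports the photoreceptors and lacks pigment in albino mice. Each of the 4 groups thus held 4 arrays. The effects of brightness and of the altered light schedule cannot be told apart.

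A ribosome is built from RNA and about equal numbers of copies of each protein, so cells make its proteins in balance. The messages of these genes are short, abundant and long-lived, and most begin with a run of pyrimidines, the 5′ terminal oligopyrimidine (TOP) motif, through which the mTORC1 kinase pathway controls their translation. In the eye, photoreceptors make large amounts of protein for their outer segments, which the RPE engulfs and breaks down every day.

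Values are log2 expression values of Affymetrix Mouse Gene 1.0 ST arrays, as deposited, so that a difference of 1 is a doubling. A gene was called when its adjusted p in limma lay under 0.05 over all 19938 genes. Of the 59 members, 44 had a mean level above 10.2, among the brightest 5% of genes, and 3 (Rpl3l, Rpl10l and Rpl39l) lay in the dimmest 25% of genes, under 5.63. The tissues carried their labelled markers: Rpe65, the visual cycle isomerase of the RPE, had a mean of 12.90 in control RPE and 5.10 in control NSR, whereas Best1, another RPE gene, was dim in both at 5.78 and 5.61. Rod markers were present in the RPE samples, with list medians over 17 genes of 7.99 to 8.46 in control RPE and 7.26 to 8.58 in light-exposed RPE, against 12.10 to 12.17 in control NSR and 11.06 to 11.35 in light-exposed NSR. Within the RPE, 3 arrays are called here the arrays that stood apart. RPE light 1 held the most rod signal (8.58, with the other RPE light arrays at 7.26 to 7.81). However, RPE control 1 and 2 were close to it at 8.45 and 8.46, and the later tests of single arrays did not flag RPE light 1. RPE control 2 held lens markers (7.44, with the other RPE control arrays at 6.14 to 6.22). RPE light 2 held markers of cornea and ciliary epithelium (8.06, with the other RPE light arrays at 6.08 to 6.30). In whole tissues, fewer cells of a type and less RNA per cell cannot be told apart.

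Light was followed by a broad but small rise of ribosomal protein messages in the RPE. In the NSR the member median was higher too, but members were called higher about as often as other bright genes. The shares there were 13.6% of the 44 members among the brightest 5% of genes and 14.1% of all 997 genes in that range. By other measures the members leaned upward. All light arrays lay above all control arrays for 22 of these 44 members and 221 of the 997 genes, and below for 2 and 203. Called lower were 0 of the 44 members and 10.9% of the 997 genes. The median of the 59 members was 11.56, 11.58, 11.60 and 11.55 on the RPE control arrays and 11.86, 11.85, 11.90 and 11.85 on the RPE light arrays. In the NSR it was 11.42, 11.48, 11.53 and 11.50 on the control arrays and 11.67, 11.67, 11.66 and 11.66 on the light arrays. In both tissues all 4 light arrays lay above all 4 control arrays, and the member median varied within groups with an SD of 0.029. These medians of levels are not the median of the members' own changes, which was 0.25 in the RPE and 0.10 in the NSR.

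In the RPE, 36 members (61.0%) were called higher and 1 (1.69%) lower, where 9.08% of all genes were called higher and 8.53% lower (17.6% either way). The members' median log2 change was 0.25, against -0.01 for all genes, and 58 of the 59 changes were positive. For 48 members every light array was above every control array and for 1 below, which held for 11.3% and 10.9% of all genes. Of the brightest 5% of genes, the range in which most members lie, 18.7% were called higher and 19.5% lower, and of the 44 members in that range 29 were called higher and 0 lower. In the NSR, 9 members (15.3%) were called higher and 0 lower, where 8.87% of all genes were higher and 6.24% lower (15.1% either way). The median log2 change of the members there was 0.10, against -0.02 for all genes. Groups did not overlap in the NSR for 26 members with higher and 3 with lower values, against 10.7% and 9.97% of all genes. Among the brightest 5% of genes 14.1% were higher and 10.9% lower in the NSR, and 6 of the 44 members in that range were called higher.

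The called changes were small. In the RPE they ran from 1.13-fold to 1.88-fold higher with a median of 1.28-fold, and in the NSR from 1.20-fold to 1.84-fold. On the brightest transcript cluster of each gene, the one used here, 0 members doubled in either tissue. The 5 clusters of Rpsa had a median log2 change of 1.06 in the RPE, with 0.91 on the one used. All 9 members called higher in the NSR were also called higher in the RPE, which is 100% of the NSR list and 25% of the RPE list. Of all members 61% were called higher in the RPE, so a large overlap is likely for any 9 of them. The matching overlap over all genes is not given here. A further 22 members were called in neither tissue on the cluster used. Some of these had other clusters called higher in the RPE when tested singly, such as Rpl24 and Rps15 (2 of 3 each). Without the 3 RPE arrays that stood apart, 19 members in place of 36 were called higher in the RPE, and the median change of all 59 members was 0.27, against 0.25 with them. The NSR count moved with the model of the spread, to 24 higher and 1 lower when the prior followed the mean level and was made robust. The shares of all genes called under these alternatives are not given here, so these member counts have no background beside them.

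**Figure D1:**
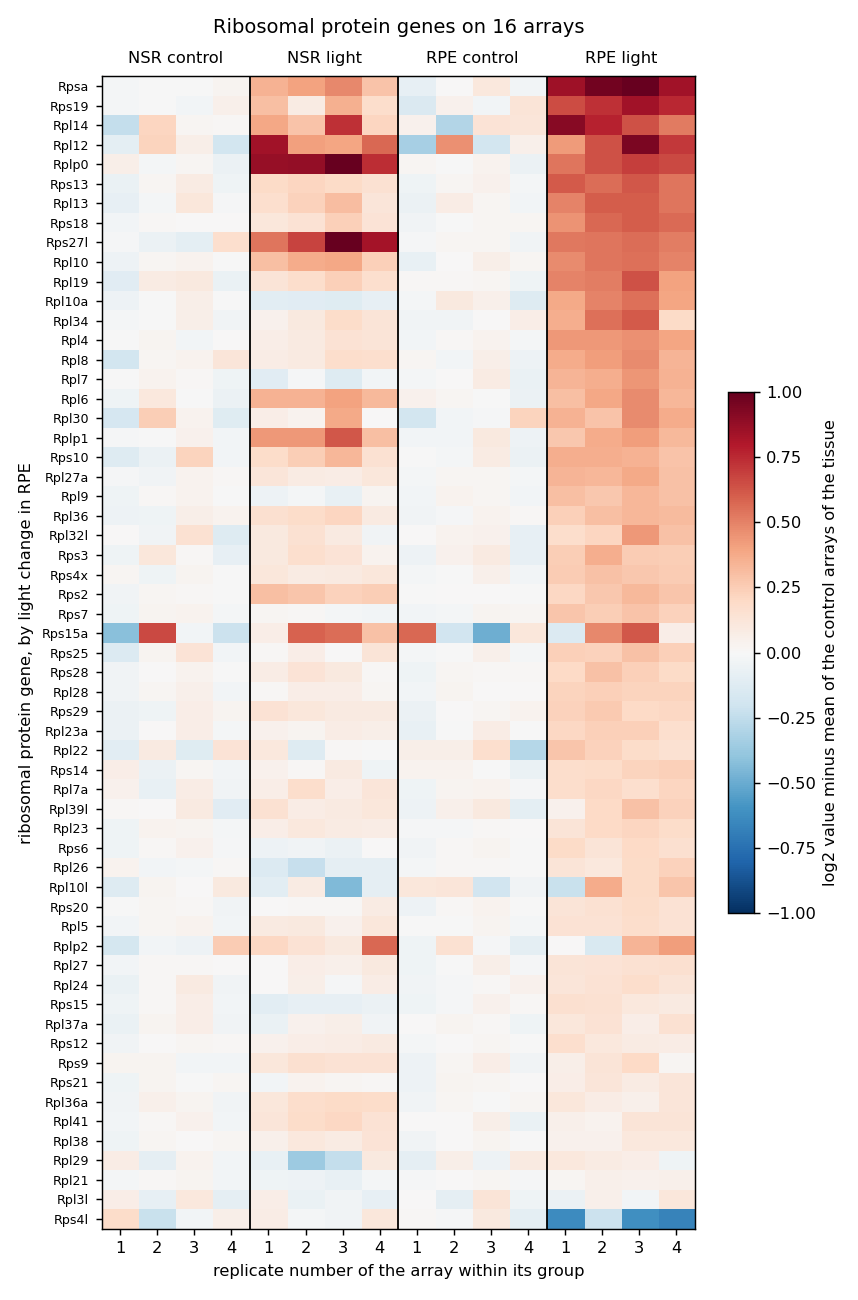
Log2 value of each of the 59 ribosomal protein genes (rows, ordered by light change in RPE) on each of the 16 arrays (columns, in 4 groups), minus the gene's mean on the control arrays of the same tissue; red is higher, blue lower, and colours end at 1 and -1. The RPE light columns are red for nearly all rows (58 of 59 changes positive), the NSR light columns for fewer, and Rps4l in the bottom row is blue in RPE light.

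The starts of several member genes show the pyrimidine run named above, the feature best known to be shared by this family, which is why they are shown. RefSeq promoter windows of the GRCm38.p6 assembly, from 250 bases before to 50 bases after an annotated start, were found for 47 of the 59 members (56 windows). The 60 bases printed here hold 40 bases before the start and 20 from it onward, with the run of C and T that begins at the start in capitals. Of the TOP-type starts, Rps6 lies at chr4:86857348-86857407 (minus strand), Rpl28 at chr7:4792925-4792984 (plus), Rps18 at chr17:33955646-33955705 (minus), Rps10 at chr17:27635225-27635284 (minus) and Rpl38 at chr11:114668540-114668599 (plus). The windows of Rpsa at chr9:120127726-120127785 (plus) and Rps13 at chr7:116334171-116334230 (minus) have no such run at the annotated start. Whether their messages begin with one is not shown by this.
Rps6: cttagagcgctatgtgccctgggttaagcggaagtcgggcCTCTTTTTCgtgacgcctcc
Rpl28: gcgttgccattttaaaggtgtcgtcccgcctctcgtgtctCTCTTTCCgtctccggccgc
Rps18: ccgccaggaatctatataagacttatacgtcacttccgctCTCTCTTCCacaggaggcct
Rps10: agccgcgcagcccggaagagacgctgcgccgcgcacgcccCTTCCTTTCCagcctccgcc
Rpl38: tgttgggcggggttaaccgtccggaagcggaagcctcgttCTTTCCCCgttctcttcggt
Rpsa: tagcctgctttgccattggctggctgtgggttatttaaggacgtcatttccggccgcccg
Rps13: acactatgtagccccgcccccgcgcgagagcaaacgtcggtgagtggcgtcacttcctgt

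A start at C followed by at least 4 pyrimidines was found in 10 of the 56 member windows (17.86%) and in 2.51% of all 32851 windows. The count depends on where the annotation sets the start, to the base. The letters CCGGAAG, the core bound by ETS factors, were in 33.93% of member windows and 8.86% of all windows, on either strand. CTTTCC was in 46.43% of member windows and 26.56% of all, CACGTG, the E-box, in 12.5% and 7.15%, and TATAAA in 10.71% and 13.62%; a window may hold several of these, and CTTTCC may lie within a pyrimidine run. The 10 members with the TOP-type start were Rpl14, Rpl28, Rpl32l, Rpl38, Rplp2, Rps10, Rps15a, Rps18, Rps21 and Rps6. Of these, 5 were called higher in the RPE with a median change of 0.24, and of the other 37 members with a window 23 were, with a median of 0.26. Because most messages of the family begin with such a run, the other 37 cannot be taken as members without it.

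In the small subunit, 14 of 22 members were called higher and 1 lower in the RPE (median 0.25), and 3 were called higher in the NSR (median 0.11). Rpsa, a protein of the small subunit also known as a laminin receptor, had the largest change. It stood at 10.56, 10.64, 10.74 and 10.61 in RPE control and at 11.48, 11.60, 11.63 and 11.48 in RPE light, with a clear gap between the groups. The log2 change was 0.91 ± 0.068 (SE), or 1.88-fold (adjusted p = 3.07e-05). In the NSR its values were 10.98 to 11.03 in control and 11.35, 11.40, 11.48 and 11.29 in light, again without overlap, a change of 0.38 ± 0.063 (adjusted p = 0.00143).

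Rps19, the small subunit protein whose loss causes Diamond-Blackfan anaemia, stood at 9.14, 9.33, 9.26 and 9.41 in RPE control and at 9.94, 10.01, 10.13 and 10.03 in RPE light. These groups did not overlap either, with a change of 0.74 ± 0.075 (1.67-fold, adjusted p = 0.000132). In the NSR the change was 0.23 ± 0.072 (adjusted p = 0.0528), which missed the threshold although the groups did not overlap. Rps13, which binds ribosomal RNA of the platform, stood at 10.73 to 10.81 in RPE control and 11.31 to 11.39 in RPE light (log2 change 0.58, adjusted p = 0.000103). Rps18, a protein of the subunit's head, stood at 11.37 to 11.43 and 11.86 to 12.02 (1.46-fold, adjusted p = 0.000197). Rps2, near the entry of the mRNA channel, rose in both tissues: by 0.26 in the NSR (adjusted p = 0.00802) and by 0.27 in the RPE (adjusted p = 0.00724). Rps6, the substrate of the S6 kinases downstream of mTORC1, had log2 changes of 0.17 in RPE (adjusted p = 0.0597) and -0.035 in NSR (adjusted p = 0.737), neither past the threshold. Of the 8 transcript clusters of Rps6, each tested on its own, 2 were called higher in the RPE and 0 in the NSR. Rps15a varied widely within groups: its values ran from 9.73 to 10.79 in RPE control and from 10.09 to 10.84 in RPE light.

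In the large subunit without the stalk, 20 of 34 members were called higher and 0 lower in the RPE (median 0.22), and 4 were called higher in the NSR (median 0.09). Rpl14 stood at 9.49, 9.16, 9.59 and 9.57 in RPE control and at 10.36, 10.23, 10.09 and 9.97 in RPE light, with no overlap (1.64-fold, adjusted p = 0.0019). Its rise in the NSR, 1.32-fold (adjusted p = 0.0414), was lost without NSR control 1, 3 or 4 or NSR light 1, 2 or 3, each left out alone (adjusted p = 0.0536 to 0.114). Rpl12, which lies at the base of the stalk, stood at 5.90, 6.69, 6.05 and 6.29 in RPE control and 6.66, 6.87, 7.18 and 6.94 in RPE light, where RPE control 2 and RPE light 1 overlap. The rise of 1.60-fold (adjusted p = 0.0177) did not pass without RPE control 3 (adjusted p = 0.0528) or RPE light 3 (adjusted p = 0.0539). In the NSR Rpl12 rose 1.47-fold without overlap (adjusted p = 0.00558).

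Rpl10, the protein whose late joining makes the large subunit competent, rose in both tissues, by 1.43-fold in the RPE (adjusted p = 0.000247) and 1.25-fold in the NSR (adjusted p = 0.00365). Rpl6 rose in both too, by 0.36 in the NSR (adjusted p = 0.00208) and 0.37 in the RPE (adjusted p = 0.00219). Rpl13, a core protein, and Rpl19, part of a bridge between the subunits, rose in the RPE by 0.56 and 0.51 (adjusted p = 0.00019 and 0.000483). Their NSR changes of 0.21 and 0.18 did not pass (adjusted p = 0.066 and 0.115). Rpl4, which lines the exit tunnel, and Rpl8, at the peptidyl transferase centre, rose in the RPE by 0.43 and 0.40 (adjusted p = 0.00048 and 0.00126). Members that were called in neither tissue include Rpl41, the smallest ribosomal protein, with changes of 0.16 in NSR and 0.09 in RPE, and Rpl5, a partner of the 5S ribosomal RNA, with 0.09 and 0.15. Of the 5 transcript clusters of Rpl5, each tested on its own, 3 were called higher in the RPE.

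The 3 stalk proteins recruit elongation factors to the ribosome. Rplp0, the stalk's anchor, stood at 9.74, 9.66, 9.70 and 9.63 in NSR control and at 10.55, 10.56, 10.72 and 10.42 in NSR light. This was the largest NSR change of any member on the cluster used, 0.88 ± 0.072 (1.84-fold, adjusted p = 5.66e-06). The other transcript cluster of Rplp0 rose in the NSR by 0.70, less than Rps27l at 0.77. In the RPE the means of Rplp0 were 10.46 ± 0.04 in control and 11.09 ± 0.07 in light (SD, n = 4), also without overlap (1.55-fold, adjusted p = 9.78e-05). Rplp1 rose 1.36-fold in the NSR (adjusted p = 0.00121) and 1.27-fold in the RPE (adjusted p = 0.00377), again with no overlap in either tissue. Rplp2 did not pass in either tissue, with changes of 0.26 in NSR (adjusted p = 0.172) and 0.15 in RPE (adjusted p = 0.509), and its light and control arrays overlapped in both. In the NSR, Rplp2 passed when the replicate number was added as a block (adjusted p = 0.0468), and in the RPE when the 3 arrays that stood apart were left out (0.43, adjusted p = 0.0239).

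**Figure D2:**
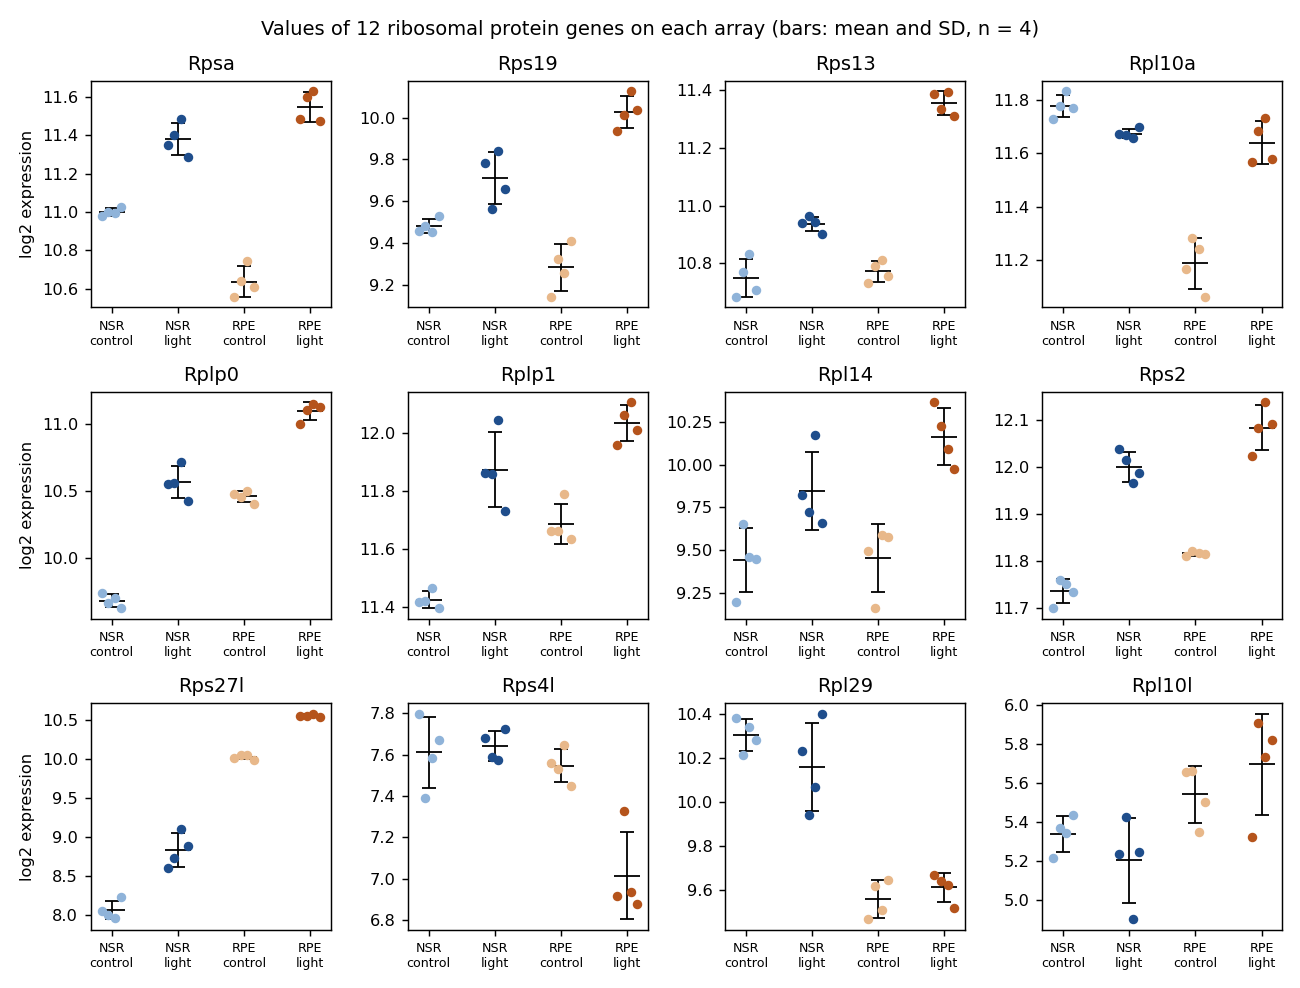
Log2 expression of 12 ribosomal protein genes on each array (points) in the 4 groups, with mean and SD (bars, n = 4); each panel has its own vertical axis, which does not start at 0. Rpsa, Rps19 and Rps13 rise more in RPE than in NSR, Rplp0 rises in both, and Rps4l is lower in RPE light, where RPE light 2 is the highest point at 7.33.

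Several members are paralogs or relatives of a core gene. Rps27l, a relative of Rps27 known as a target of p53, rose in both tissues: from 8.04, 8.00, 7.96 and 8.23 to 8.59, 8.73, 9.10 and 8.89 in the NSR, and from 10.01, 10.05, 10.04 and 9.99 to 10.55, 10.55, 10.58 and 10.53 in the RPE. The groups did not overlap in either tissue, with rises of 1.71-fold (adjusted p = 0.000304) and 1.45-fold (adjusted p = 0.000134). Rpl32l rose in the RPE by 0.28 (adjusted p = 0.0223), which was lost when RPE light 4 or either of RPE control 1 and 4 was left out (adjusted p = 0.0518 to 0.0647), and its NSR change was 0.08. Rpl3l, known from muscle, and Rpl10l and Rpl39l, known from testis, were dim in all 4 groups, with means of 4.96 to 5.10, 5.20 to 5.70 and 3.96 to 4.25. None of these 3 was called for light in either tissue.

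Rps4l was the member that fell with light in the RPE. RefSeq annotates it as a transcribed pseudogene. It stood at 7.56, 7.53, 7.65 and 7.45 in RPE control and at 6.92, 7.33, 6.94 and 6.88 in RPE light, where RPE light 2 is nearest to the controls but still below them. The fall was 1.45-fold (log2 change -0.53 ± 0.10 SE, adjusted p = 0.005), and the NSR change was 0.03 (adjusted p = 0.85). Its other transcript cluster on the array changed by -0.066 in the RPE and was not called. Rps4x, the core gene of the same name, rose in the RPE by 0.27.

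Whether the tissues responded differently was tested directly as the light change in RPE minus that in NSR. Here 13 members (22%) were called with a larger change in RPE and 1 with a smaller one, where 5.16% and 8.05% of all genes were called (13.2% either way). Among the brightest 5% of genes the shares were 9.83% and 15.1%. The median difference of the members was 0.16, against 0.02 for all genes, and 49 of 59 members had the larger change in RPE. Rpl10a, a protein of the mobile L1 stalk, differed most. It stood at 11.73, 11.78, 11.83 and 11.77 in NSR control and 11.67, 11.67, 11.66 and 11.70 in NSR light, and at 11.17, 11.28, 11.24 and 11.06 in RPE control and 11.57, 11.68, 11.73 and 11.58 in RPE light. Thus its light arrays were slightly lower in the NSR, a change that did not pass the test (-0.10, adjusted p = 0.265), and higher in the RPE (0.45, adjusted p = 0.00167). The difference was 0.56 ± 0.085 (SE, adjusted p = 0.000204).

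Rpsa (0.53, adjusted p = 0.000403), Rps19 (0.51, adjusted p = 0.00211), Rpl7 (0.44, adjusted p = 0.00068), Rps13 (0.39, adjusted p = 0.00129) and Rps18 (0.39, adjusted p = 0.00155) followed. The others called were Rpl13, Rpl19, Rpl9, Rpl4, Rpl26, Rps7 and Rpl27a, with differences of 0.24 to 0.35. Rpl26 was called here but in neither light comparison: its changes of -0.14 in NSR and 0.17 in RPE did not pass singly (adjusted p = 0.167 and 0.076). Rps4l was the member with the smaller change in RPE (-0.56, adjusted p = 0.0102). Its other transcript cluster differed by -0.16 and was not called. The stalk genes and Rps27l leaned the other way without passing: Rplp0 differed by -0.25 (adjusted p = 0.0848) and Rps27l by -0.24 (adjusted p = 0.248). The other transcript cluster of Rplp0 differed by only -0.0075. Without NSR light 4, Rplp0 passed as well (-0.29, adjusted p = 0.033), which made 2 members with a smaller change in RPE in place of 1. Across the 59 members the changes in the 2 tissues had Pearson r = 0.569 and Spearman rho = 0.581, a description over genes that share mice and arrays.

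**Figure D3:**
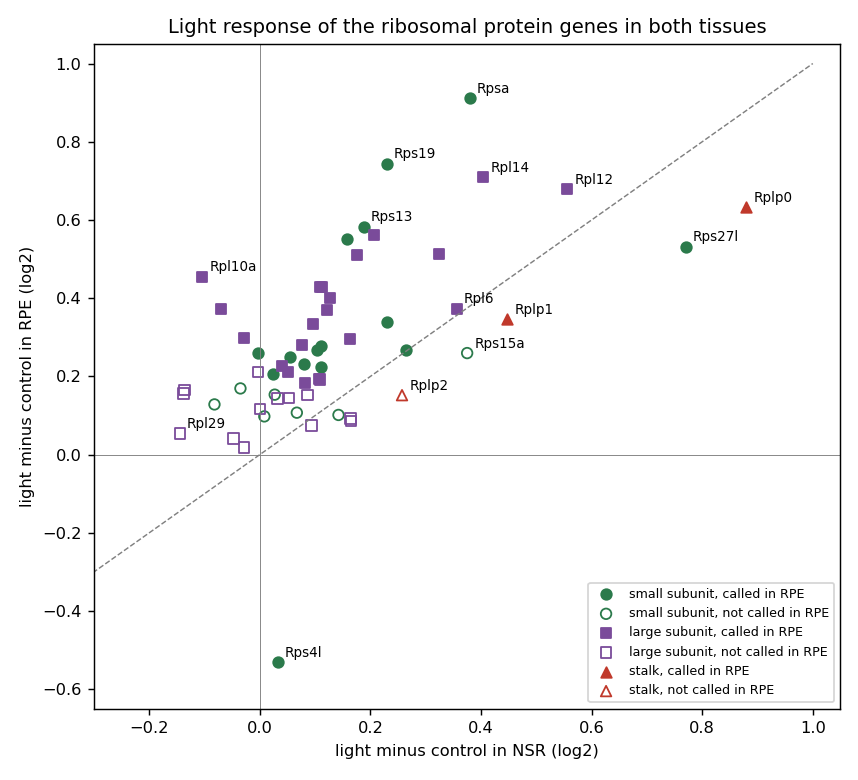
Log2 change with light in NSR (horizontal) and in RPE (vertical) for each of the 59 ribosomal protein genes; symbols show the subunit, filled symbols are called in RPE, and the dashed line marks equal change. Most genes (49 of 59) lie above the line, Rplp0, Rplp1, Rplp2 and Rps27l lie below it, and Rps4l is alone below 0 in RPE.

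The size of the change varied with the level of the gene on the array. The 20 members with a mean above 12 had a median RPE change of 0.15 (8 called higher) and the 18 between 11 and 12 one of 0.34 (16 called higher). The 13 between 9 and 11 had 0.43 (9 called higher) and the 8 at or below 9 had 0.17 (3 called higher). In the NSR the medians were 0.06, 0.12, 0.19 and 0.09, with 0, 5, 3 and 1 members called higher. Whether the brightest probes were near their upper limit was not tested. Levels of different genes are not comparable on an array, since probes differ.

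The comparison of the tissues asked how RPE and NSR differ in these genes apart from light. In control mice the members went both ways: 17 (28.8%) were called higher and 12 (20.3%) lower in RPE, where 30.8% of all genes were higher and 24.2% lower (55% either way). Their median difference was 0.04, the same as that of all genes. Groups did not overlap for 21 members higher and 15 lower in RPE, against 29.5% and 22.8% of all genes, and of the brightest 5% of genes 51.8% were called higher and 30% lower. In light-exposed mice 37 members (62.7%) were called higher and 3 (5.08%) lower in RPE, where 34.4% and 23.6% of all genes were (58% either way). The median was 0.17, against 0.08 for all genes. Groups did not overlap for 38 members higher and 3 lower, against 30.3% and 21.6% of all genes, and of the brightest 5% of genes 52.8% were higher and 29.6% lower. These counts depended on scaling. After quantile normalization of all arrays, 3 members were higher and 35 lower in control RPE (median -0.21), and 13 higher and 18 lower in light-exposed RPE (median -0.026), so that the direction of the family between the tissues is not settled. The shares of all genes under this scaling are not given here.

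A few members differed between the tissues under each scaling. Rps27l was 3.91-fold higher in RPE of control mice (10.02 ± 0.03 against 8.06 ± 0.12, SD, n = 4, adjusted p = 1.17e-12) and 3.31-fold in light-exposed mice (adjusted p = 8.83e-12). Rplp0 was 1.71-fold higher (adjusted p = 6.29e-09) and Rpl6 1.47-fold (adjusted p = 1.41e-07) in control mice, and both stayed higher after light. Rpl41, Rpl8 and Rps10 were higher in control RPE by 0.33, 0.30 and 0.28 as deposited (adjusted p up to 0.00237), and with quantile normalization these differences were 0.045 to 0.065 and were not called. On the other side, Rpl10a was 1.51-fold lower in control RPE (11.19 ± 0.10 against 11.78 ± 0.04, SD, n = 4, adjusted p = 1.11e-07), and Rpsa 1.29-fold lower (adjusted p = 5.62e-05). In light-exposed mice Rpl10a stood at 11.64 in RPE and 11.67 in NSR and was not called (adjusted p = 0.663). Rpsa was called higher there (0.17, adjusted p = 0.0261), with overlapping arrays and a value of -0.079 after quantile normalization. Each of the 5 clusters of Rpsa was also tested on its own. They gave -0.36 to -0.08 in control mice (4 called lower) and 0.17 to 0.45 in light-exposed mice (5 called higher). Rps7 and Rpl9, lower in control RPE by 1.20-fold and 1.18-fold, were not called after light.

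Rpl30 and Rpl29 had the lowest values against NSR in control RPE, 1.71-fold and 1.68-fold lower (adjusted p = 3.74e-06 and 4.49e-07). They also stayed lower in light-exposed mice, at 1.44-fold and 1.46-fold. Both rest on the transcript cluster used: with clusters shared between several symbols allowed, a brighter cluster gave 0.14 for Rpl29 and -0.072 for Rpl30 in control mice, and 0.25 and 0.0755 in light-exposed mice. Rpl10l was 1.41-fold higher in light-exposed RPE (adjusted p = 0.00205) with overlapping arrays, at a level in the dimmest 25% of genes, and Rps4l 1.55-fold lower (adjusted p = 2.3e-05). The other transcript cluster of Rps4l gave -0.12 there and was not called. Of the 12 members lower in control RPE, 9 were among the 13 with a larger light response in RPE; these comparisons share the control arrays. Comparing the tissues before and after light, 17 members were higher in RPE in both, 2 lower in both, 4 went from lower to higher, 6 from lower to not called, and 16 from not called to higher. The matching shares of all genes are not given here. Under both other scalings, 3 of 17 higher and 10 of 12 lower calls in control mice were kept. In light-exposed mice 13 of 37 higher and 3 of 3 lower calls were kept.

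**Figure D4:**
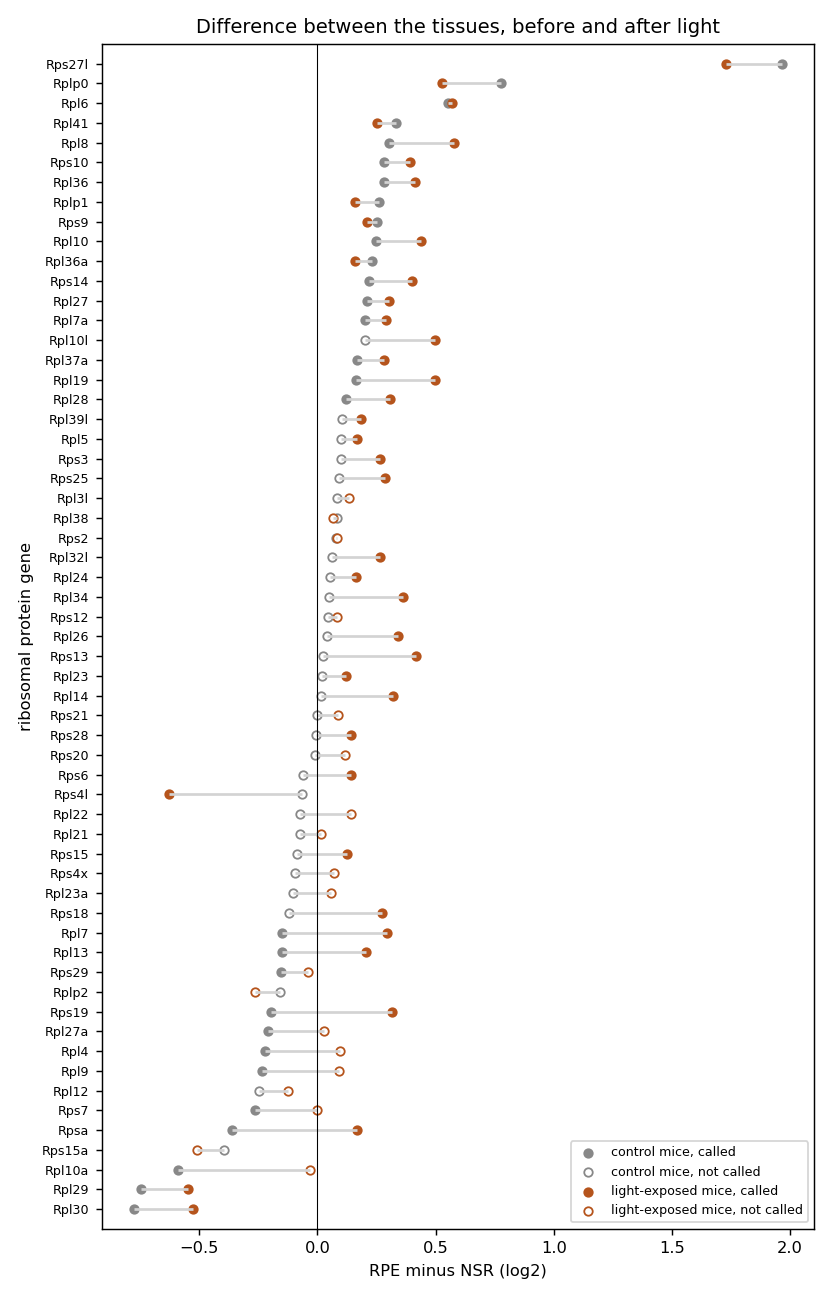
RPE minus NSR (log2) of each of the 59 ribosomal protein genes in control mice (grey) and in light-exposed mice (orange), ordered by the value in control mice; filled points are called. The orange point lies to the right of the grey one for 49 of the 59; Rps27l stands at 1.97 and 1.73, and Rpl29 and Rpl30 at the bottom are lower in RPE in both.

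Many ribosomal protein genes have processed copies elsewhere in the genome, so that probes may read more than 1 gene. The 59 members had 215 clusters with a single symbol, 20 members having 1 cluster and Rps12 having 14. With every cluster tested on its own, 152 (70.7%) were higher and 1 lower with light in the RPE, and 28 (13.0%) were higher and 0 lower in the NSR. The shares over all single-symbol clusters are not given here. Of all genes, 9.08% were called higher in the RPE and 8.87% in the NSR, and of the brightest 5%, 18.7% and 14.1%. No member had clusters called both ways. The 5 clusters of Rpsa rose in the RPE by 0.91 to 1.10 and the 7 of Rps18 by 0.52 to 0.67. Clusters of 1 gene share sequence and samples and are not replicates. A further 19 symbols of the family appear only in clusters with several symbols. Each such cluster was counted under its first symbol that met the rule, which left 16 of these symbols with a value. The others share clusters that were counted under another symbol. With light, 11 of the 16 were called higher in the RPE and 0 lower. In the NSR 3 were higher (Rpl15, Rpl36al and Rpl39, by 0.21 to 0.29) and 1 lower (Rps23, -0.27). Rps26 rose most in the RPE, by 0.58. No share over all clusters of several symbols is given beside these counts.

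Genes that build, regulate or work with ribosomes were counted for comparison. Of 44 ribosome biogenesis genes, which process ribosomal RNA and assemble subunits, 26 were called higher in the NSR and 34 in the RPE, with 0 lower in either, and medians of 0.29 and 0.48. Without the 3 RPE arrays that stood apart 27 were higher in the RPE. The largest rises were those of Rrp1b in the NSR (1.85-fold, adjusted p = 6.66e-05) and Nip7 in the RPE (2.04-fold, adjusted p = 4.21e-05). Of 28 translation initiation factors, 13 rose in the NSR and 16 in the RPE (6 without the 3 arrays), with 0 lower, and Eif3b, a scaffold subunit of eIF3, rose most in both (0.82 and 0.62). Of 17 cytosolic aminoacyl-tRNA synthetases, which load tRNAs, 5 were higher and 1 lower in the NSR, and 12 were higher and 0 lower in the RPE (6 without the 3 arrays). Of 15 elongation factor and other TOP genes, 5 were higher and 1 lower in the NSR and 4 higher in the RPE (1 without the 3 arrays). The elongation factor subunit Eef1b2 rose most, by 0.77 and 0.36.

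In the RNA polymerase I machinery, which transcribes ribosomal RNA, 2 of 15 genes were higher in the NSR (0 after quantile normalization), and 6 were higher and 1 lower in the RPE (4 and 1 without the 3 arrays). Polr1a, its largest subunit, was called in opposite directions, at 0.28 in the NSR (adjusted p = 0.028) and -0.88 in the RPE (adjusted p = 9.79e-06), and Twistnb rose most in the RPE (0.89). Of 19 genes of mTORC1 and of TOP message control, 0 were higher and 2 lower in the NSR, and 3 were higher and 6 lower in the RPE (0 and 1 without the 3 arrays). Examples are Ddit4, an inhibitor of mTORC1, at -0.37 in the NSR and Sesn1, another inhibitor, at -0.46 in the RPE, while Akt1s1, also an inhibitor of mTORC1, rose in the RPE by 0.28 (adjusted p = 0.00842). Of 13 ribosome quality control genes, 1 was higher in the NSR, and 5 were higher and 1 lower in the RPE (3 and 1 without the 3 arrays). Abce1, which splits ribosomes for reuse, rose most (0.41 and 0.68). Of 4 ribosome-related genes outside the symbol rule, Rpl7l1 rose in the NSR (0.42), and Fau, whose product holds a small subunit protein, and Rps19bp1 rose in the RPE (0.29 and 0.41), where 1 gene of the list was called without the 3 arrays.

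Mitochondrial ribosomal proteins make up a separate ribosome. Of 77 such genes, 11 were called higher and 4 lower with light in the NSR, and 28 higher and 3 lower in the RPE (13 and 2 without the 3 arrays that stood apart), with medians of 0.05 and 0.18. In control RPE 63 of the 77 were higher than in control NSR and 2 lower (median 0.46), and 46 and 5 after quantile normalization; the 59 cytosolic genes gave 17 and 12, and 3 and 35. The difference between these families was not tested. Of 11 p53 targets, 4 were higher and 1 lower in the NSR, and 3 higher and 4 lower in the RPE (1 and 2 without the 3 arrays). Of 17 genes of ATF4 and the unfolded protein response, 7 were higher and 3 lower in the NSR, and 4 higher and 3 lower in the RPE (1 and 3 without the 3 arrays). Over all genes, as given above, 8.87% were higher and 6.24% lower in the NSR, and 9.08% and 8.53% in the RPE. These shares hold for all arrays as deposited, and shares without the 3 arrays or after quantile normalization are not given here.

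**Figure D5:**
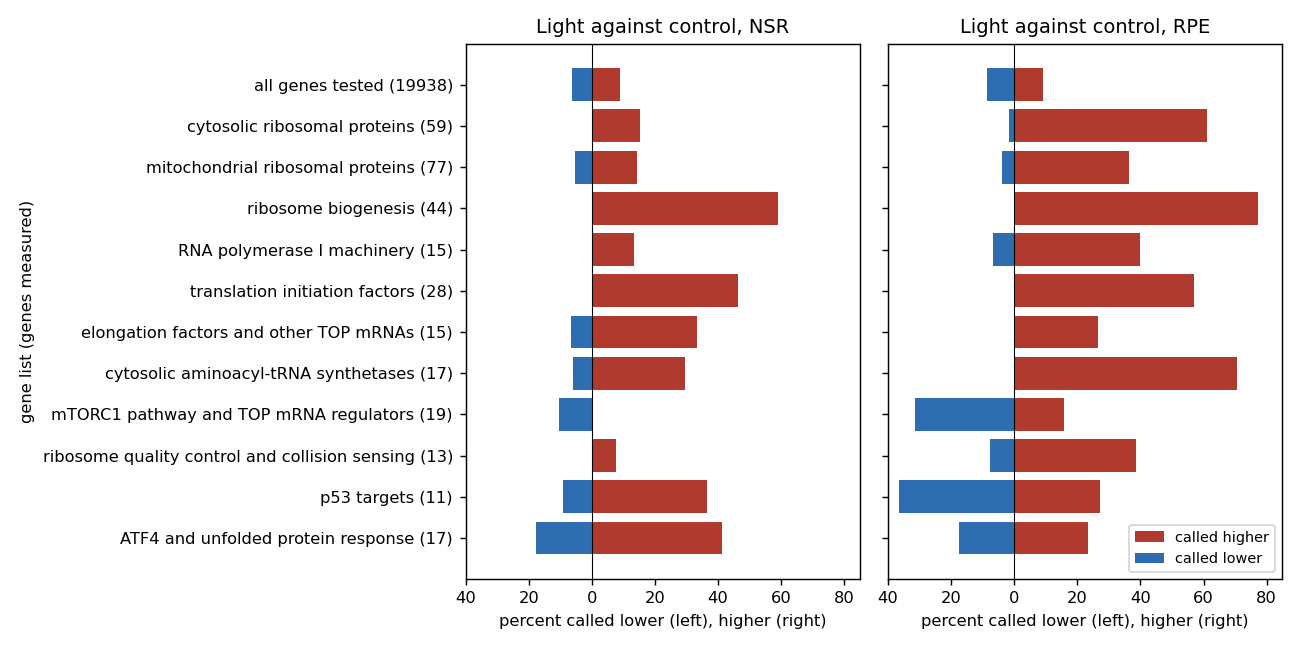
Percent of the measured genes of each list (number in brackets) that were called higher (right, red) or lower (left, blue) with light in NSR (left panel) and RPE (right panel), with all genes tested at the top. The cytosolic ribosomal proteins stand at 15.3% higher in NSR and 61.0% in RPE, and ribosome biogenesis genes at 59.1% and 77.3%.

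Markers of cell types changed with light as well. Of 22 RPE markers 1 was called higher and 16 lower in the RPE, and their median level was 11.84 to 12.05 in control RPE and 11.19 to 11.37 in light-exposed RPE. All 17 rod markers were called lower in the NSR and 2 in the RPE. The median of 14 microglia and macrophage markers was 6.04 to 6.13 in control NSR and 6.33 to 6.52 in light-exposed NSR, and 7.17 to 7.68 and 7.12 to 7.76 in the RPE. Of these 14, 5 were called higher and 0 lower in the NSR, and 1 each way in the RPE. Müller glia markers went both ways: of 12, 2 were called higher and 7 lower in the NSR (median log2 change -0.43), and 2 higher and 3 lower in the RPE (-0.045). The part of these shifts in the changes of the ribosomal protein genes was not tested.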

How the data were processed

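RNA of the NSR and RPE of 8 mice was measured on 16 one-colour arrays after RNeasy Mini extraction and Ovation Pico amplification, per the labels' protocols. The submitters' processing notes name RMA and Partek 6.6. The authors deposited log2 values for 35556 transcript clusters, whose log2 scale was read from their range. They hold no background measure, so the height of a gene above background is unknown. The annotation version is not given in the sources used here. Each gene took its brightest single-symbol cluster by the mean over all arrays (21789 of the clusters have 1 symbol, 1621 several and 12146 none). All 59 members matched RefSeq by gene identifier.

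Groups came from the labels. Light was tested within each tissue (8 arrays), and the difference of responses and the tissues over all 16 arrays with 4 group means, with limma 3.58.1 in R 4.3.3 (lmFit, eBayes) and Benjamini-Hochberg adjustment over 19938 genes. Tables and figures used Python 3.11.15, pandas 2.3.3 and matplotlib 3.10.9. The fits were tested on simulated data. The members, gene lists and tests were chosen with earlier results of these data known. Named members are the 6 largest called rises and falls of each of the 5 comparisons, the paralogs, the stalk genes and Rpsa. For other lists the rule names the largest called rise and fall per light comparison, of which fewer are printed, chosen after their values were seen. Rps6, Rps15a, Rps4x, Rpl5, and some further members and genes of motifs or lists were chosen after their values were seen.

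NSR and RPE of 1 mouse share an identifier. Their deviations from group means correlated between -0.011 and 0.053, and those of same-numbered control and light mice, which are different animals, between -0.017 and 0.066. Alternatives were other scaling, filters, priors, weights, cluster handling, blocks and arrays left out.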

Additional observations from a re-analysis of the deposited data

Results flagged for a closer look

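Single arrays stood apart from the other 3 of their group in 7 of 164 tests, where chance gives about 1 in 20. Among genes these were Rpl19 on RPE control 4 (10.85 against 10.90 on the others), Rpl30 on NSR light 3 (8.82 against 8.45 to 8.51) and Rps4l on RPE light 2 (7.33 against 6.88 to 6.94). The median of the 59 members was 11.90 on RPE light 3 and 11.85 to 11.86 on the other RPE light arrays. Among marker lists, rods stood at 12.10 on NSR control 4 (12.17 on the others), lens at 7.44 on RPE control 2, and cornea, conjunctiva and ciliary epithelium at 8.06 on RPE light 2.

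The light response differed between the tissues for 14 members by the test of the difference itself in limma. In log2 units, RPE minus NSR, these were Rpl10a 0.56, Rpsa 0.53, Rps19 0.51, Rpl7 0.44, Rps13 0.39, Rps18 0.39, Rpl13 0.35, Rpl19 0.33, Rpl9 0.33, Rpl4 0.32, Rpl26 0.30, Rps7 0.26, Rpl27a 0.24 and Rps4l -0.56. The other transcript cluster of Rps4l differed by -0.16 and was not called.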

How the results depend on the processing

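Of 75 tests of named members, 54 were counted as unchanged under every alternative run and 21 were not. A called result counted as unchanged if it kept its direction and stayed called. An uncalled result counted as unchanged if it stayed uncalled or if its sign reversed, so the 54 may include reversals of uncalled members. Of the calls, 8 of 9 in the NSR (all but Rpl14), 16 of 36 higher in the RPE, 10 of 13 for the difference, and Rps4l in both of the last, were kept under all alternatives. Between the tissues 3 of 17 higher and 6 of 12 lower calls in control mice were kept, and 13 of 37 and 1 of 3 in light-exposed mice.

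The counts below are of members alone, without the share of all genes called under each alternative. With quantile normalization, members called higher were 14 in the NSR and 20 for the difference. For the tissues they were 3 higher and 35 lower in control mice (median -0.21) and 13 and 18 in light-exposed mice (median -0.026), where Rplp1 (-0.088) and Rpsa (-0.079) changed sign. With a trended, robust prior, 24 were higher and 1 lower in the NSR, and 25 higher and 2 lower for the difference. With all 16 arrays in the fit, 16 were higher in the NSR. With clusters of several symbols also used, 1 of 75 members was lower in the NSR, and over the same 59 members, an alternative chosen after seeing the data, 1 was lower in RPE of light-exposed mice. There Rpl29 changed sign in control (0.14) and light-exposed mice (0.25) and Rpl30 in light-exposed mice (0.0755). With RPE light 1, RPE light 2 and RPE control 2 all left out, 19 were higher in the RPE, where fewer samples were fitted. The cause of the other shifts was not tested.

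Leaving out each array in turn gave 8 to 10 higher in the NSR and 30 to 34 in the RPE, 12 to 14 higher and 1 to 2 lower for the difference, 15 to 17 and 9 to 13 in control tissues, and 31 to 37 and 3 to 4 in light-exposed tissues. With the replicate number as a block, 10 were higher in the NSR and 29 in the RPE. These numbers join different mice. With the mouse as a fixed block, the pairing of the tissues gave 14 higher and 9 lower in control mice and 27 and 4 in light-exposed mice, and as a random block (correlation 0.004) the counts of the fit without it. The number of arrays and the unknown background limit all values.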
